A study of Arabidopsis thaliana with 3 samples.

Results

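The genes described here are the 72 Arabidopsis MIR genes of 18 numbered microRNA groups with roles in development: MIR156, MIR157, MIR159, MIR160, MIR164 to MIR172, MIR319, MIR390, MIR393, MIR394 and MIR396. They were taken by symbol from an NCBI gene table of assembly TAIR10.1, which lists 37899 genes on chromosomes 1 to 5, among them 254 other MIR genes. Around each gene, the peaks of SOB3-GFP were collected whose summit lay in the annotated gene span or within 1000 bp to either side. SOB3 is an AT-hook protein, a class that binds AT-rich DNA, and represses growth of stems and petioles. Chromatin came from whole Col-0 plants of 14 days carrying ProSOB3::SOB3-GFP in the sob3-4 mutant, grown at 22 °C in 16 h of light and 8 h of darkness and harvested at ZT4. The fusion was pulled down with an anti-GFP antibody in 2 replicates, beside 1 input library made without antibody. Every library carried the fusion, and no precipitation from plants without it was among the samples. The fusion was driven by the SOB3 promoter and whole plants were used, so the signal is a mixture over tissues.

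A plant microRNA is cut from a hairpin transcript by DICER-LIKE1 and loaded into ARGONAUTE1, which then represses messenger RNAs that pair with the microRNA. Many of the most conserved families act on transcription factors: miR156 and miR157 restrain SPL factors and keep plants juvenile, and miR172 restrains AP2-like factors later in life. PIF proteins, growth-promoting factors of which PIF4 is named in the title of the series, are known to repress several MIR156 genes in shade. Other families set auxin response, organ boundaries, leaf polarity and cell number.

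Of the 72 genes, 8 had a peak in both replicate lists, 11 in replicate 1 only, 1 in replicate 2 only, and 52 had none. A peak here says only that the authors' peak caller placed one near the gene. The 8 were MIR167a and MIR167d, MIR159b, MIR169a, MIR168a, MIR157c, MIR396a and MIR166e. They belonged to 7 of the 15 families obtained when groups that share targets were joined (miR156 with miR157, miR165 with miR166, miR170 with miR171). At 6 of the 8 genes the peaks of the 2 replicates overlapped, and at MIR167d and MIR396a they lay on opposite sides of the gene without overlap.

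The 8 genes made 11.1% of the members, against 11.7% of 27444 protein-coding genes and 5.51% of the other MIR genes under the same rule. In replicate 1 alone 26.4% of the members had a peak, against 28.7% of protein-coding genes and 15.7% of other MIR genes. In replicate 2 the shares were 12.5%, 13.7% and 6.69%. The member shares were therefore near the protein-coding background in each list. The windows were not equal, since a member's span had a median of 134 bp and a protein-coding gene's one of 2078 bp. Counting summits in the 1000 bp flanks alone, which gives every gene the same length of DNA, left the 8 members (11.1%) against 9.36% of protein-coding genes, 7.61% of lncRNA genes, 5.12% of other MIR genes and 4.00% of tRNA genes. With a window of 1000 bp either side of the middle of the gene, 6 members (8.33%) were called. The shares were 6.75% of lncRNA genes, 4.33% of other MIR genes, 4.16% of tRNA genes and 3.24% of protein-coding genes. At the median spans, this window lies nearly all inside a protein-coding gene and nearly all outside a member. With the span and flanks of 250 bp the order against protein-coding genes was the opposite, with 1 member (1.39%), MIR167a, against 5.36%. That window was again longer for protein-coding genes, because it held the span. Other MIR genes stood at 0.787%. With the span and 1000 bp flanks, peaks were also required to overlap a peak of the other list by 1 bp. This left 6 members (8.33%), against 11.3% of protein-coding genes and 5.51% of other MIR genes. The comparison with protein-coding genes thus depended on the window and on the overlap rule. With 1 group and 2 lists the design held no test between conditions, so these shares are a description.

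**Figure D1:**
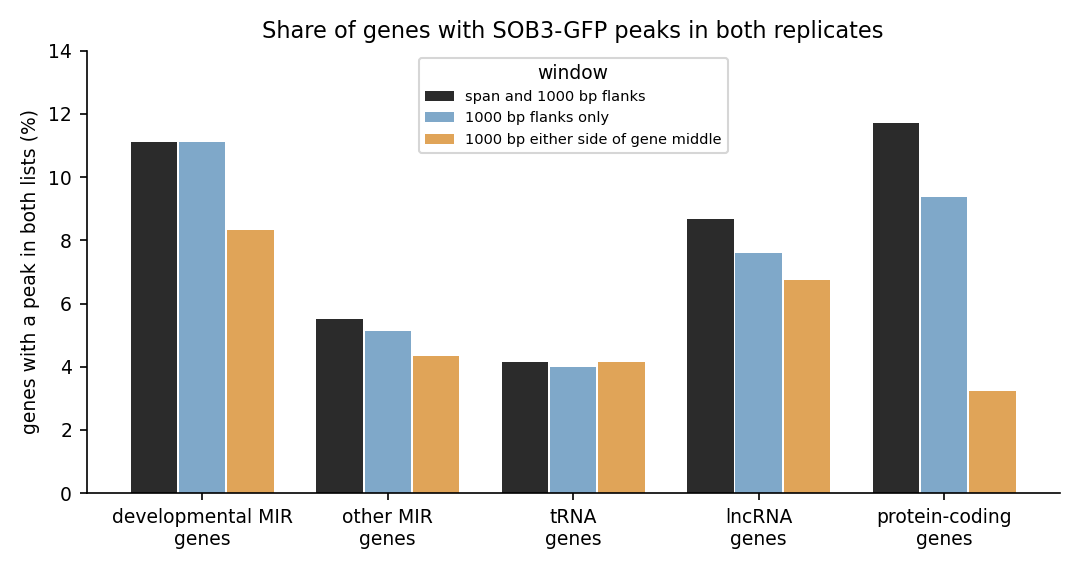
Percent of genes with a SOB3-GFP peak in both replicate lists, by class of gene (72 developmental MIR genes, 254 other MIR genes, 625 tRNA genes, 3480 lncRNA genes and 27444 protein-coding genes) and by window. The developmental MIR genes stand at 11.1% with the span and flanks, near protein-coding genes at 11.7%. With the window around the gene middle they stand at 8.33%, against 6.75% of lncRNA genes and 3.24% of protein-coding genes.

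There were 9980 peaks in replicate 1, of median fold enrichment 2.58, and 4788 in replicate 2, of median 2.47. Fold enrichment is the authors' linear ratio of ChIP signal to control at the summit, and the lists carry no read totals, so the depth behind each peak is unknown. Genome-wide, 38.5% of the replicate 1 peaks and 81.9% of the replicate 2 peaks had an overlapping partner. Around the members the counts were 6 of 23 replicate 1 peaks and 6 of 9 replicate 2 peaks. Nothing in the labels ties the replicates to separate cultures of plants, so the spread between them may be technical.

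Among the timing families, 11 of the 14 genes of miR156 and miR157 had no peak, beside 52 of all 72 members. MIR157c was the only gene of the 14 with a peak in both lists, MIR156c and MIR156d had a peak in replicate 1, and the other 11, MIR156a and MIR156b included, had none within 1000 bp. At MIR157c (AT3G18217) the shared region lay on chromosome 3, 6244927 to 6245274 (TAIR10), with folds of 2.93 in replicate 1 and 2.39 in replicate 2. These stood at percentiles 68.5 and 42.4 of their lists. A second replicate 1 peak, of fold 2.29, had its summit 20 bp from the span, the nearest of any member. MIR156c (AT4G31877) reached 2.87 in replicate 1, and the nearest replicate 2 summit was 1854 bp away with a fold of 1.86. MIR156d (AT5G10945) had a fold of 2.33, with the summit inside the protein-coding gene AT5G10946, the single member peak whose summit fell inside a protein-coding span.

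The miR172 family restrains AP2 and its relatives and so promotes the adult phase and flowering. It had peaks at 1 of 5 genes, beside 20 of all 72 members. MIR172e (AT5G59505) held a pair of weak replicate 1 peaks, with folds of 2.05 and 1.96, and the nearest replicate 2 summit was 15047 bp away. Both peaks lay nearer than 1 kb to RTFL5 (AT5G59510), at 369 and 754 bp.

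**Figure D2:**
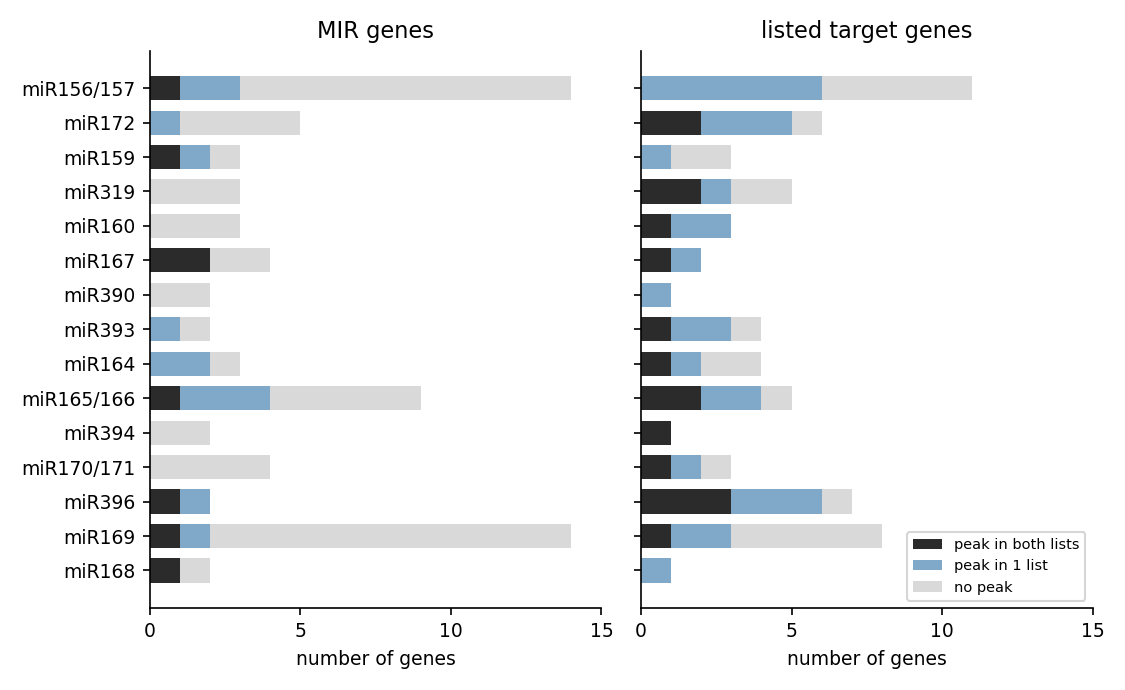
Number of genes per microRNA family with a SOB3-GFP peak in both replicate lists, in 1 list or in none, for the MIR genes themselves (left) and for the listed target genes (right). MIR genes with a peak in both lists occur in 7 families, and miR319, miR160, miR390, miR394 and miR170 with miR171 have no MIR gene with any peak. Of all 72 MIR genes shown, 52 have no peak.

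Of the auxin-related families, miR167 stood highest by fold in replicate 1. This family restrains ARF6 and ARF8, activators of auxin-responsive growth. MIR167a (AT3G22886) had a region on chromosome 3, 8107298 to 8108131, 834 bp wide in replicate 1, with folds of 4.95 and 2.55. Its −log10 q, the caller's measure of certainty after adjustment for many peaks, was 33.7 and 6.19. The summits of the replicates were 8 bp apart, at 227 and 219 bp from the gene, and the nearest protein-coding gene, APS1 (AT3G22890), was 4769 and 4761 bp from them. The replicate 1 fold was at percentile 97.7 of its list and the replicate 2 fold at percentile 56.5, so the gene ranked higher in replicate 1 than in replicate 2. MIR167d (AT1G31173) had a fold of 4.31 in replicate 1 (chromosome 1, 11136808 to 11137431) and of 2.08 in replicate 2 (11138179 to 11138423). These peaks were separated by 747 bp with the gene between them, so the gene had a peak in both lists but no shared region. The summit nearest to MIR167b or MIR167c was 10338 bp away.

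The other auxin families, miR393, miR160 and miR390, have 2, 3 and 2 genes, of which 1 had a replicate 1 peak and 0 a peak in both lists, too few genes to set apart from the member shares of 26.4% and 11.1%. MIR393a (AT2G39885), whose microRNA restrains the auxin receptors TIR1 and AFB2, held 2 replicate 1 peaks on the same side with folds of 2.66 and 2.56, and the nearest replicate 2 summit was 44325 bp away. MIR393b had none within the window, with a replicate 1 summit at 1199 bp. None of the 3 MIR160 genes, which act on ARF10, ARF16 and ARF17, had a peak in the window. A replicate 1 summit of fold 2.51 lay 1002 bp from MIR160a and so fell just outside it. The MIR390 genes, which trigger small RNAs against ARF2, ARF3 and ARF4 through TAS3, had their nearest summit at 10144 bp.

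Among families that shape leaves and boundaries, MIR159b carried the strongest signal held by both replicates. miR159 restrains the GAMYB-like factors MYB33 and MYB65. At MIR159b (AT1G18075) the region lay on chromosome 1, 6219280 to 6220005, with folds of 4.795 in replicate 1 and 3.22 in replicate 2 and −log10 q of 36.2 and 13.0. Its percentiles of 97.1 and 89.1 were the only pair above 80 among the members. Its summits were also far from the gene, at 908 and 855 bp. The lncRNA gene AT1G05377 was much nearer, at 8 and 61 bp, and the nearest protein-coding gene, AT1G18070, was 1354 and 1407 bp away. MIR159a, the other main miR159 gene, had a replicate 1 peak of fold 2.31 only, and MIR159c had none.

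The miR165 and miR166 family restrains the HD-Zip III factors that set the upper side of leaves. Of its 9 genes 4 had a replicate 1 peak and 1 of these, MIR166e, also a replicate 2 peak. Over all 72 members the counts were 19 with a replicate 1 peak and 8 with a peak in both lists. At MIR166e (AT5G41905, chromosome 5, 16774923 to 16775254) the fold was 1.93 in replicate 1, at percentile 6.6 of that list, and 2.66 in replicate 2. It was the member with the lowest replicate 1 fold among the 8, and its fold was higher in replicate 2. MIR166a reached 3.15 in replicate 1 with a replicate 2 summit just outside the window, at 1062 bp. MIR166c (2.54) and MIR166d (2.196), which neighbour each other with 1848 bp between their spans, each had a replicate 1 peak of their own. MIR165a, MIR165b, MIR166b, MIR166f and MIR166g had none.

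The miR396 family, which restrains the GRF factors of cell proliferation, was the one family in which every gene had a replicate 1 peak, though it has only 2 genes. MIR396a (AT2G10606) had a fold of 2.98 on chromosome 2 at 4142396 to 4142974 in replicate 1. Its replicate 2 peak, of fold 2.39, was at 4141287 to 4141524, 871 bp away on the other side of the gene. MIR396b (AT5G35407) had a replicate 1 peak of fold 2.79 and its nearest replicate 2 summit was 3968 bp away. miR164, which restrains the boundary genes CUC1 and CUC2, had replicate 1 peaks at MIR164b (3.66, −log10 q of 16.0) and MIR164a (2.05). The MIR164b peak had the highest fold of the 11 genes seen in replicate 1 only. The 3 MIR319 genes, which act on CIN-class TCP factors, had no peak in either list, beside 52 of all 72 members.

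MIR168a (AT4G19395) encodes the microRNA that restrains AGO1 itself. Its region on chromosome 4, 10577907 to 10578514, had folds of 2.79 and 2.55, both a little above the list medians. A second replicate 1 peak, of fold 2.74, lay at 943 bp on the other side, and the summit nearest to MIR168b was 14622 bp away. The miR169 family, which restrains NF-YA factors, has as many genes as miR156 with miR157. Of its 14 genes only MIR169a (AT3G13405) had a peak in both lists, beside 8 of all 72 members. The MIR169a region lay on chromosome 3 at 4359399 to 4359789. Its folds of 2.89 and 2.99 were the most even of the 8 genes. MIR169j had a replicate 2 peak of fold 2.58 and was the only member seen in that list alone. MIR169i to MIR169n stand in a cluster of close copies whose windows overlap in pairs, and how reads that match several copies were treated is not given in the sources used here. The 4 genes of miR170 and miR171 and the 2 of miR394 had no peak, beside 52 of all 72 members.

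**Figure D3:**
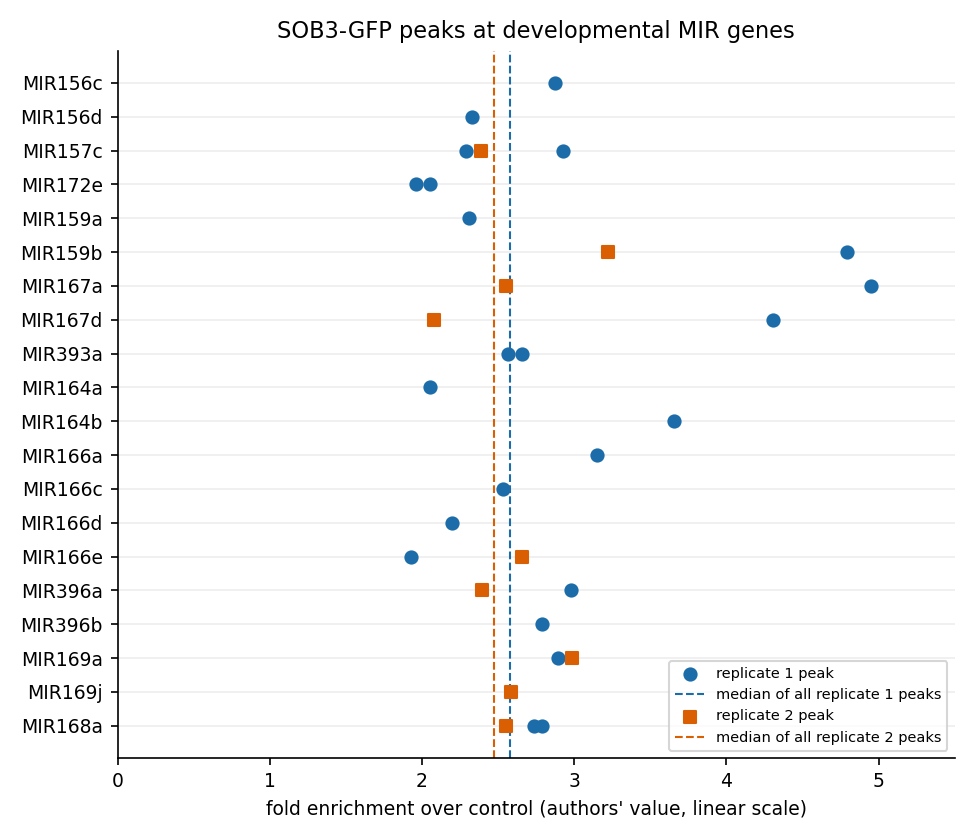
Fold enrichment (authors' linear value) of each peak at the 20 members with at least 1 peak, by replicate, with dashed lines at the median of all peaks of each list (2.58 and 2.47). MIR167a, MIR159b and MIR167d stand above 4 in replicate 1, and MIR159b is the one gene above 3 in replicate 2.

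Over the 8 genes the median of the highest fold was 2.95 in replicate 1 (1.93 to 4.95) and 2.55 in replicate 2 (2.08 to 3.22). Fold was higher in replicate 1 at 6 of them and higher in replicate 2 at MIR166e and MIR169a. The 11 genes with a replicate 1 peak only had a median fold of 2.54 (2.05 to 3.66), close to the median of the whole list. Their nearest replicate 2 summit lay between 1062 and 49389 bp away, with a median of 15047 bp.

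None of the 23 replicate 1 and 9 replicate 2 summits lay inside a member's span, which covers 68 to 411 bp. Summits were a median of 416 bp from the span in replicate 1 and 449 bp in replicate 2, and 14 of 23 and 6 of 9 were within 500 bp. They fell to either side, 10 toward lower and 13 toward higher coordinates in replicate 1, and 5 and 4 in replicate 2. The gene table gives no strand, so the sides cannot be named upstream and downstream. In replicate 1, 6 of 23 summits lay in or within 1000 bp of a protein-coding gene, and in replicate 2 it was 2 of 9. Counting annotated genes of every kind, another gene was nearer to the summit than the MIR gene for 6 of the 23 and 3 of the 9 peaks, among them those at MIR159b and MIR164a, and the replicate 1 summit at MIR166c lay inside the lncRNA gene AT5G01565. Where highest peaks overlapped, the summits of the replicates were 8 to 134 bp apart. No peak was counted for more than 1 member, although 10 members have windows that overlap another member's window.

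**Figure D4:**
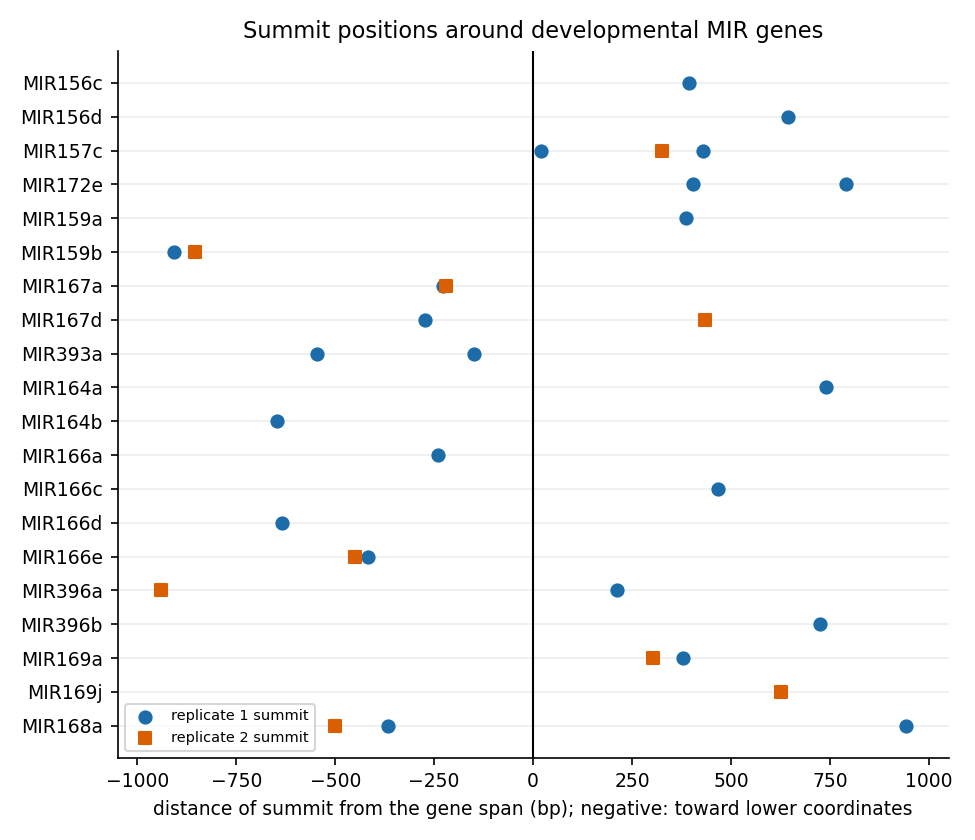
Distance in bp from the gene span (vertical line) to each SOB3-GFP summit at the 20 members with a peak, with negative values toward lower coordinates. Replicate 1 and replicate 2 summits are closest at MIR167a, MIR166e and MIR159b (8, 33 and 53 bp apart) and lie on opposite sides at MIR167d and MIR396a.

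The median distance from the MIR gene to the nearest protein-coding gene was 1408 bp for the 8 genes with a peak in both lists, 1523 bp for the 12 with a peak in 1 list and 1336 bp for the 52 with none. Near the 1000 bp limit, the replicate 1 peak at 943 bp from MIR168a was counted and the one at 1002 bp from MIR160a was not. In replicate 2 the peak at 940 bp from MIR396a was counted. The peak at 1013 bp from MIR169i was not counted for that gene, but it is the peak counted for MIR169j, at 625 bp.

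The genes that these microRNAs act on were examined in the same way, from a list of 64 loci. Of these 42 had a peak in replicate 1 (65.6%, against 28.7% of protein-coding genes), 17 in replicate 2 (26.6%, against 13.7%) and 16 in both (25%, against 11.7%). Their spans were longer than those of protein-coding genes in general, with a median of 2641 bp. In the flanks alone 11 of them (17.2%) had a peak in both lists, against 9.36%, and with the window around the gene middle 1 did (1.56%, against 3.24%). Since the list was chosen with earlier results of these data known, the shares are given without a test.

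The target with the highest lower fold was NF-YA2 (AT3G05690), a miR169 target, with 6.71 and 5.52 in the 2 replicates. Next came HB-15 (AT1G52150, 3.53 and 3.48), an HD-Zip III target of miR165 and miR166, the miR396 target GRF1 (AT2G22840, 3.51 and 2.997) and HAM3 (AT4G00150, 4.88 and 2.99), a meristem GRAS factor and target of miR170 and miR171. NF-YA2 and HB-15 were above every one of the 72 members in replicate 2, where MIR159b was the highest of them with 3.22. No SPL gene of the 11 listed targets of miR156 and miR157 had a peak in both lists, while 5 had one in replicate 1 only and SPL4 in replicate 2 only. The replicate 1 share was 45.5%, against 28.7% of protein-coding genes and 65.6% of all listed targets. In both lists those backgrounds were 11.7% and 25%, and 11 genes are too few to set apart from 11.7%. SPL10 and SPL11 are neighbours and have the same replicate 1 fold of 2.36, which may be the same peak counted for both.

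By family, 7 of 15 had a MIR gene and 11 of 15 a listed target with peaks in both lists. Both a MIR gene and a target had peaks in both lists in 4 families, namely miR167, miR396, miR169 and miR165 with miR166. In 7 families a target but no MIR gene did, in miR159, miR168 and the joined miR156 and miR157 a MIR gene but no listed target did, and in miR390 neither did. For miR167, ARF8 (AT5G37020) had folds of 4.58 and 2.27, and ARF6 (AT1G30330) had 4 replicate 1 peaks of up to 4.73 and none in replicate 2. Targets were listed unevenly, from 1 gene for miR168 to 11 for miR156 and miR157, so the counts of families are not on equal footing. With 7 and 11 of 15 families called, some would hold both without any relation, and a relation was not tested.

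Of 13 genes for microRNA maturation and action, 5 had a replicate 1 peak and 1 a replicate 2 peak (38.5% and 7.69%, against 28.7% and 13.7% of protein-coding genes). Only HYL1 (AT1G09700), the double-stranded RNA-binding partner of DICER-LIKE1, had a peak in both, with folds of 2.66 and 2.196. AGO1, restrained by miR168, had a replicate 1 peak of fold 2.78, and DCL1, SE, HEN1 and HST had none.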

How the data were processed

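Peak lists of the 2 SOB3-GFP ChIP replicates were used; the input library was not analysed here. Reads were aligned with Bowtie 0.12.9 to TAIR10 and peaks called with MACS2, per the submitters' processing notes. Its version, control and threshold were not given in the sources used here. Peaks are numbered per replicate in the deposited files, so they were called per replicate. The authors' fold is a linear ratio to control; the authors' −log10 q column (lowest 1.33 and 1.30) and the deposited score column, which was not used, come from the same caller. Positions are printed as 1-based TAIR10 coordinates. Genes came from the RefSeq table of TAIR10.1, whose nuclear coordinates are taken to equal TAIR10; it gives spans without strand, and sequence was not used here. A gene was called when its span or the 1000 bp to either side held a summit. The fold given for a gene is that of its highest peak. Lists carry no read totals, so depth and counting intervals are unknown. No test was run. The window and overlap search was tested on simulated peaks. Scripts used Python 3.11.15, numpy 2.4.6 and pandas 2.3.3. The members and lists were chosen with earlier results of these data known. All members with a peak are named with their folds, and from each list up to 4 genes with a peak in both lists and the highest lower fold; other named list genes were chosen after their values were seen. The alternatives were other flanks, a window around the gene middle, stricter peaks, 2 overlap rules, whole peaks in place of summits and each list alone.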

Additional observations from a re-analysis of the deposited data

How the results depend on the processing

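The number of members with a peak in both lists was 8 in 7 families. It was 1 gene in 1 family (MIR167a) with flanks of 250 bp and 13 genes with flanks of 2000 bp. With −log10 q of at least 5 it was 4 genes in 4 families (MIR159b, MIR167a, MIR168a and MIR169a), and with −log10 q of at least 10 or the 1000 strongest peaks of each list it was 1 gene in 1 family (MIR159b). Flanks of 500 bp and the window around the gene middle each gave 6, without MIR159b and MIR396a; both overlap rules gave 6, without MIR167d and MIR396a; whole peaks gave 9, with MIR166a added. Without replicate 1 the count was 9 and without replicate 2 it was 19, in 7 and 10 families. The share of members divided by that of protein-coding genes was 0.949. It was 0.259 with flanks of 250 bp and 2.58 with the window around the gene middle, so it lay on either side of 1 with the window. Flanks of 500 and 2000 bp gave 1.04 and 1.08, and whole peaks 0.983. With −log10 q of at least 5 and 10 it was 0.783 and 0.747, and with the 1000 strongest peaks 1.39. Overlap by 1 bp gave 0.735, and reciprocal overlap of 50% gave 0.875. With each list alone the ratio was 0.912 and 0.918. The flanks alone, an alternative chosen after seeing the data, gave 8 genes and a ratio of 1.19. The median lower fold was 2.47 over the 8 genes. The median fold was 2.55 over the 9 genes of replicate 2 and 2.79 over the 19 genes of replicate 1. These 3 medians are of different genes, and the lower of 2 folds is smaller by construction. Of 195 counts of single families under an alternative, 44 differed from the main count by more than 1.5 times (13 higher and 31 lower). Only 7 of the 15 families had a main count above 0. The counts of the others could not change where an alternative only removed peaks or narrowed the window, so the 195 include values that could not move. Of 47 folds of single genes 5 changed, all to lower values. Folds of single genes could not rise, since their alternatives took the nearest peak or only peaks within 500 bp in place of the highest. The cause of the other moves was not tested, beyond what narrower windows and fewer peaks remove by construction. No paired analysis was possible because the design has 1 group of ChIP replicates and no test. Peak strength is limited by an unknown depth.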

Other observations

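Of the 254 MIR genes outside the developmental groups, 14 had a peak in both lists, and at all 14 the highest peaks of the replicates overlapped. The strongest by the lower fold was MIR8166 (AT1G04993), with 4.14 in replicate 1 and 3.87 in replicate 2 and the replicate 1 summit inside the gene span. It was followed by MIR405a (AT2G22668, 5.48 and 3.65), with summits 997 and 989 bp away, and by MIR5665 (AT5G07055, 3.15 and 3.06). Each of these had a lower fold above that of every developmental MIR gene except MIR159b (3.22), which stood between MIR405a and MIR5665. MIR826a and MIR826b had the same pair of folds, 2.54 and 2.51, with summits at 237 and 245 bp and at 279 and 287 bp. These may be the same peaks counted for both genes, so the 14 genes may hold fewer than 14 separate regions. These genes were named after their values were seen.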
